A study of Mus musculus with 4 samples.

Results

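Transcripts of 10 T cell and natural killer (NK) cell genes were followed in RNA from liver macrophages sorted as YFP+ or YFP- from reporter mice. The genes were chosen by name, as Cd3e, Cd3d, Cd3g, Gzma, Gzmb, Prf1, Nkg7, Ncr1, Il2rb and Klrb1c. All 10 have a single row in each deposited gene table, out of 23337 gene names. All mice carried Lyz2cre and RosaYFP, so both groups share the Cre driver and the reporter. Cre made from the lysozyme gene Lyz2 is active in cells of the myeloid lineage, and YFP marks a cell in which it, or a precursor, acted. The mice were 6 to 8 weeks old, male and female, and Kupffer cells (KCs), the resident macrophages of the liver, were sorted from them. There were 4 libraries, 2 YFP+ and 2 YFP-. In each group the title of one library begins with M and that of the other with FM, and libraries are named by them here. What the starts mean, and whether animals were pooled or shared between libraries, is not in the labels. P-values therefore rest on the spread between these libraries, which may be technical. In the main fit that spread is pooled over genes and is not the spread of the single gene.

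CD3 chains carry the signal of the T cell antigen receptor into the cell and are made by T cells and NKT cells. NK cells and cytotoxic T cells kill through granules that hold perforin, which opens a path through the membrane of the target, and granzymes, proteases that enter and trigger death. The liver is rich in NK, NKT and CD8+ T cells that lie in the sinusoids beside Kupffer cells. In bulk RNA, fewer cells of a type and less RNA per cell cannot be told apart.

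The upstream sequences of the genes are shown as a description. All 10 genes had lower levels in both YFP+ libraries, as did 79.7% of the 12251 genes tested below. A link between motifs and levels was not tested. RefSeq sequences (GRCm38.p6) matched 9 of the 10 genes, and the 250 bases before the first listed start were searched on both strands. The RUNX core TGTGGT, which reads ACCACA from the other strand and is bound by factors active in T and NK cells, was present in 6 of 9, against 14.2% of 27025 gene starts. The 6 were the 4 granule genes Gzma, Gzmb, Prf1 and Nkg7 and the NK receptors Ncr1 and Klrb1c, while none of the 3 CD3 genes held it in this window. Gzmb had matches beginning 34 and 93 bases before its start and Ncr1 41 and 176; the single match began 50 bases before the start of Gzma, 130 before that of Prf1, 83 before that of Nkg7 and 89 before that of Klrb1c. The ETS core AGGAAG was present in 5 of 9 against 29.2%, TATAAA in 0 of 9 against 13.0%, and the T-box core GGTGTGA in 1 of 9 (Nkg7) against 3.31%. In these windows 0 matches of one motif shared bases with a match of another, and a match describes the letters only. Written 5′ to 3′ with RUNX matches in capitals, the windows of both genes with 2 matches, of 2 granule genes with 1 and of Cd3g with none read as follows.
Gzmb (chr14:56262335-56262584, minus strand): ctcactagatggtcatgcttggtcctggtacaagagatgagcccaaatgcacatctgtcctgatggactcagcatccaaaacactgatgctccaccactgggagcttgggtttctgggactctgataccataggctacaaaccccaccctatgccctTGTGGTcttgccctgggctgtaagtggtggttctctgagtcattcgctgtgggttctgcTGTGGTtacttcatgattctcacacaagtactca
Ncr1 (chr7:4337465-4337714, plus strand): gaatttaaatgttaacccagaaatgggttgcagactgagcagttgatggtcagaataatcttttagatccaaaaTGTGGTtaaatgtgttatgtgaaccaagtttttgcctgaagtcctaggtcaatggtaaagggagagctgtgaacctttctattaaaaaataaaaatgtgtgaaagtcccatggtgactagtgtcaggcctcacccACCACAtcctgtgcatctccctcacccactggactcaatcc
Prf1 (chr10:61297586-61297835, plus strand): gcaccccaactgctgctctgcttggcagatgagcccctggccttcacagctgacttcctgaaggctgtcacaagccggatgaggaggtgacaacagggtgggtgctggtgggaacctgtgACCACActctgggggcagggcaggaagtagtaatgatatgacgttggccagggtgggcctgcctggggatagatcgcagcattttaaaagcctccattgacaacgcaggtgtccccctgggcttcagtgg
Nkg7 (chr7:43436888-43437137, plus strand): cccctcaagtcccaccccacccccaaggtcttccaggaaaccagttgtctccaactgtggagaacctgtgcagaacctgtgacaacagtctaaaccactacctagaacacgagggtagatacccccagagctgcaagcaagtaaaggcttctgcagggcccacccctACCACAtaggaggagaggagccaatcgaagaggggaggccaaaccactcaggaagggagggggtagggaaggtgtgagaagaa
Cd3g (chr9:44980432-44980681, minus strand): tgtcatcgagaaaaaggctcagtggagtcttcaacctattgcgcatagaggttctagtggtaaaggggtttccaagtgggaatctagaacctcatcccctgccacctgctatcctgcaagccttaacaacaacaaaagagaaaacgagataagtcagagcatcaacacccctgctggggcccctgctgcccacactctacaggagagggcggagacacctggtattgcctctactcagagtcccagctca

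Depth differed between libraries and is known only as coverage, since the tables hold no read counts. Mean coverage at 1 FPKM was 4.81 in YFP+ M, 2.60 in YFP+ FM, 9.19 in YFP- M and 2.59 in YFP- FM. Of the fixed Kupffer cell markers all 8 were present in every library, with a summed level of 43342 and 46194 TPM in YFP+ and 14029 and 25935 TPM in YFP- (M, then FM). The 7 microglia markers summed to 944 and 72.4 TPM in YFP+ but to 16226 and 15185 TPM in YFP-, so the YFP- libraries hold transcripts that define brain macrophages beside those of the labelled cell type. TPM, the transcript share of a gene, is scaled per gene length and to a fixed sum in each library, and levels below are TPM. Differences are YFP+ minus YFP- in log2(TPM + 1), a scale that makes the change of a low gene look smaller.

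The 3 CD3 genes lie within 40019 bases of chromosome 9 (GRCm38). Cd3g (chr9:44969572-44980431, minus strand) and Cd3d (chr9:44981786-44987052, plus strand) run away from each other with starts 1355 bases apart, and Cd3e (chr9:44998743-45009590, minus strand) follows. Cd3e encodes the epsilon chain and stood at 10.6 TPM in YFP+ M, 2.56 in YFP+ FM, 44.7 in YFP- M and 42.6 in YFP- FM. The YFP- libraries were close to each other and both above both YFP+ libraries, and the gene fell in YFP+ (log2 fold change -2.80, SE 1.12, limma adjusted p = 0.0367). Cd3g, the gamma chain, stood at 17.8 and 6.12 TPM in YFP+ M and FM against 123 and 39.3 TPM in YFP- M and FM, and fell (-2.61, SE 1.07, limma adjusted p = 0.0409). Its YFP- libraries differed about as much as its YFP+ libraries did, with M the higher in both groups. Cd3d, the delta chain, stood at 11.95 and 4.01 TPM in YFP+ against 79.5 and 16.8 TPM in YFP- (M, then FM). It did not pass (-2.23, SE 1.12, limma adjusted p = 0.0892) and its YFP- FM level lay close above its YFP+ M level.

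The granule genes Nkg7, Gzma and Gzmb, but not Prf1, were the most abundant of the 10 by mean level over all libraries. Nkg7, a membrane protein of cytotoxic granules (chr7:43437138-43438246, plus strand), stood at 64.3 TPM in YFP+ M, 44.4 in YFP+ FM, 472 in YFP- M and 116 in YFP- FM. The YFP- M library stood far above the others, and the difference did not pass (-2.11, SE 0.94, limma adjusted p = 0.0575). Gzma, a tryptase-like granzyme (chr13:113093827-113100981, minus strand), had the same order of libraries, at 52.9 and 38.3 TPM in YFP+ and 443 and 141 TPM in YFP-, and fell (-2.45, SE 0.94, limma adjusted p = 0.0302). Gzmb, the granzyme that activates caspases (chr14:56258858-56262260, minus strand), was the most even within groups, at 37.7 and 37.5 TPM in YFP+ and 214 and 187 TPM in YFP-. It fell by 2.38 on the log2 scale (SE 0.96, limma adjusted p = 0.0383). Prf1, perforin (chr10:61297836-61304263, plus strand), was the exception among granule genes, at 5.16 and 2.31 TPM in YFP+ against 7.02 TPM in YFP- M and 52.5 TPM in YFP- FM. Here the FM library carried the YFP- level, and the difference did not pass (-2.20, SE 1.14, limma adjusted p = 0.09995).

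By the same mean level the NK receptors Ncr1 and Klrb1c were the least abundant. Ncr1, which encodes the activating receptor NKp46 (chr7:4337724-4345164, plus strand), stood at 3.88 and 0.627 TPM in YFP+ and 19.4 and 14.0 TPM in YFP- (M, then FM), and fell (-2.63, SE 1.08, limma adjusted p = 0.0409). Klrb1c, which encodes NK1.1 (chr6:128778485-128788641, minus strand), stood at 3.04 and 0.611 TPM in YFP+, 4.79 TPM in YFP- M and 25.1 TPM in YFP- FM. It did not pass (-2.27, SE 0.99, limma adjusted p = 0.0537) and its YFP- M level lay close above its YFP+ M level. Coverage of Ncr1 and Klrb1c in YFP+ FM was only 1.32 and 1.29, so their levels there rest on few reads; Klrb1c and the granzymes also have close paralogs, and how reads were split between copies is uncertain. Il2rb, the beta chain shared by the receptors of interleukins 2 and 15 (chr15:78480549-78495066, minus strand), stood at 15.9 and 7.52 TPM in YFP+, 23.9 TPM in YFP- M and 228 TPM in YFP- FM. It fell (-2.65, SE 1.07, limma adjusted p = 0.0373), with a YFP- SD of 145 TPM around a mean of 126 TPM.

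**Figure D1:**
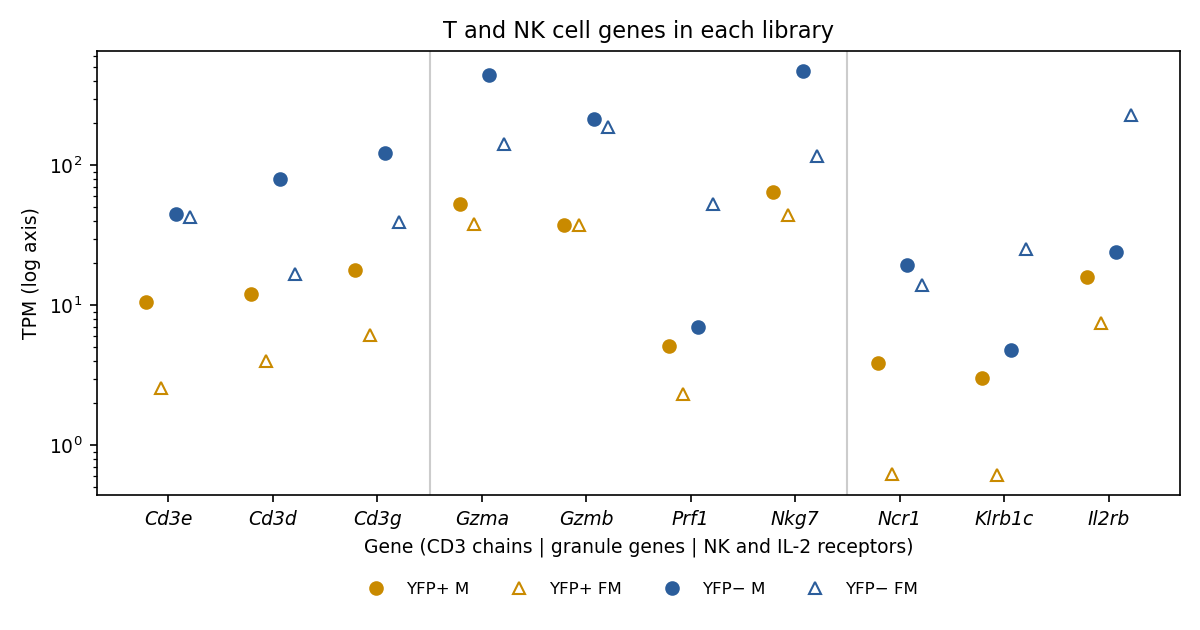
TPM of each of the 10 genes (log axis) in YFP+ (orange) and YFP- (blue) libraries, with M libraries as filled circles and FM libraries as open triangles. For all 10 genes both YFP- points lie above both YFP+ points, as for 79.7% of all tested genes. Prf1, Klrb1c and Il2rb are highest in YFP- FM.

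In order of mean level over the 4 libraries the genes ran Nkg7, Gzma, Gzmb, Il2rb, Cd3g, Cd3d, Cd3e, Prf1, Ncr1 and Klrb1c. Nkg7, Gzma and Gzmb held the first 3 places, in that order, in both YFP+ libraries and in YFP- M. In YFP- FM the order was Il2rb, Gzmb, Gzma and Nkg7. In YFP+ libraries the means of Nkg7 (54.3 ± 14.1 TPM) and Gzma (45.6 ± 10.4 TPM) lay within their spread across libraries. So did those of Cd3d (7.98 ± 5.61 TPM) and Cd3e (6.56 ± 5.65 TPM). Within each YFP+ library the order was the same, with Nkg7 over Gzma at 1.21 and 1.16 and Cd3d over Cd3e at 1.13 and 1.57 (M, then FM). Between Gzmb (37.6 ± 0.171 TPM) and the next in the order, Il2rb (11.7 ± 5.94 TPM), the YFP+ levels were apart by more than their spread (SD, n = 2 throughout). In YFP- libraries the SD of Gzmb was 19.1 TPM on a mean of 200.5 TPM, while that of Nkg7 was 252 TPM on a mean of 294 TPM.

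Most genes shared the direction of these differences. All 10 genes passed the filter (at least 1 TPM in at least 2 libraries) and 6 were called lower in YFP+, where 39.5% of the 12251 tested genes were called lower and 0.522% higher. Both YFP+ libraries were below both YFP- libraries for 10 of 10 genes, and for 79.7% of all tested genes. The 10 differences ran from -2.80 to -2.11 with a median of -2.41, against a median of -1.73 over all tested genes. In the deposited values all 10 thus lay below the median of all genes. Nkg7 lay above that median by 0.18 with a pseudocount of 0.1 and by 0.24 under median-ratio scaling, and Prf1 by 0.014 under cyclic loess. In the deposited values 12.2% of tested genes had a lower value than Cd3e, the lowest of the 10, and 34.5% a lower value than Nkg7, the highest of the 10. The number of calls rested on single libraries: it was 10 without YFP+ M and 0 without YFP+ FM, without YFP- M or without YFP- FM. The share of all tested genes called lower moved with it, to 68.2% when YFP+ M was left out, 7.95% for YFP+ FM, 0.253% for YFP- M and 0.234% for YFP- FM. A fit that blocks on the title start also gave 0, where 14.1% of all tested genes were called lower. In 2 against 2 libraries an exact permutation test cannot go below p = 0.333. In the main fit limma's SE and call use a variance trend over all genes in place of each gene's own spread.

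Each of 3 rescalings of the libraries removed every call among the 10. Median-ratio scaling divides each library by a single factor and does not give the libraries a common distribution. Quantile normalization, which called 1.67% of tested genes lower, moved the median of all genes to -0.03 and left differences from -1.36 for Gzma (limma adjusted p = 0.367) to -0.18 for Prf1 (limma adjusted p = 0.907). Cd3e stood at -0.86 and Cd3g at -0.87 there, with limma adjusted p of 0.3505 and 0.537, and Gzmb at -1.20 (limma adjusted p = 0.296). Under median-ratio scaling, with 6.45% of genes called lower, Ncr1 was the lowest of the 10 at -0.93 (limma adjusted p = 0.250) and Nkg7 turned to 0.14 (limma adjusted p = 0.912). Under cyclic loess, with 0.327% of genes called lower, Gzma was the lowest at -1.48 (limma adjusted p = 0.299) and Prf1 turned to 0.0054 (limma adjusted p = 0.997). The sign of the other 8 genes was negative under all 3 scalings.

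**Figure D2:**
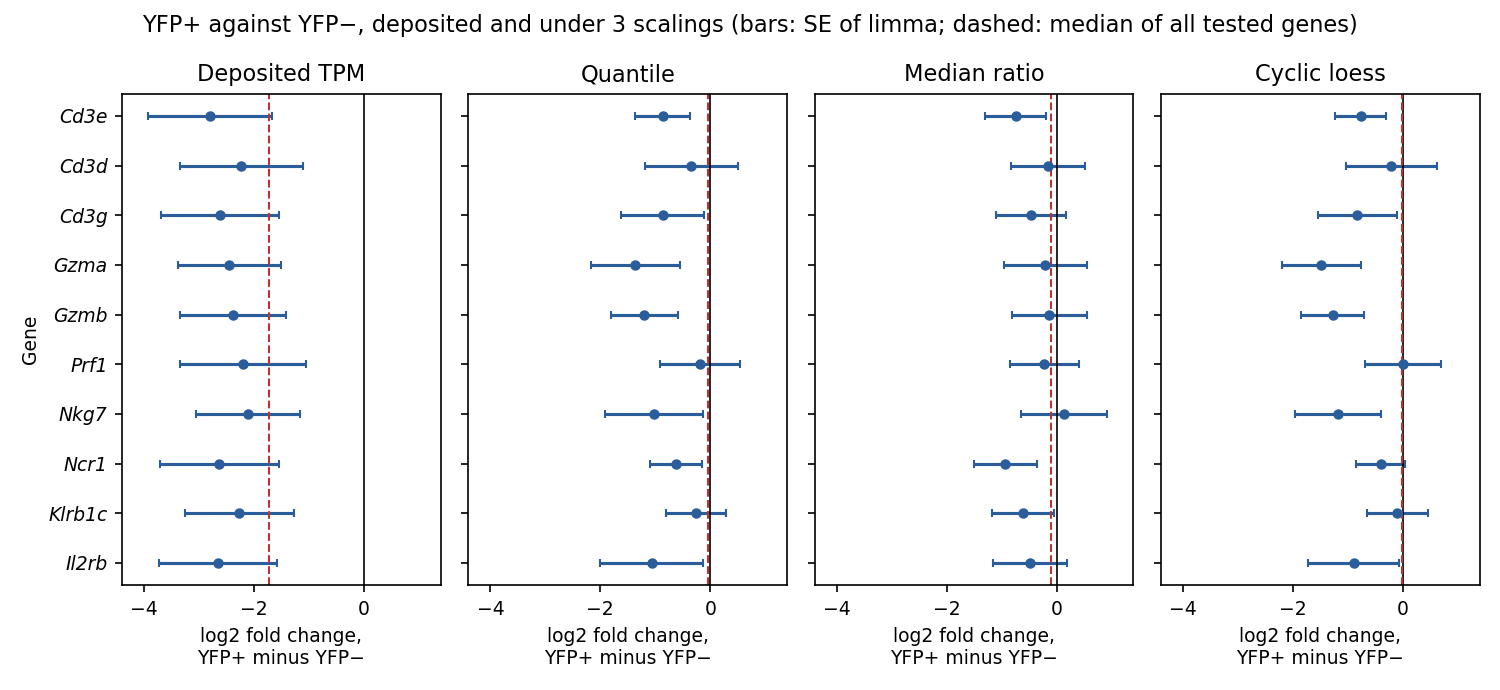
Log2 fold change of each gene, YFP+ minus YFP-, with its SE, in the deposited TPM and under 3 scalings; the dashed line is the median of all tested genes. The 10 genes lie between -2.80 and -2.11 in the deposited values, where the dashed line is at -1.73, and around or moderately below 0 after rescaling.

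The 2 YFP- libraries did not carry the same profile. Nkg7, Gzma, Gzmb, the 3 CD3 genes and Ncr1, 7 in all, were higher in YFP- M than in YFP- FM, and Prf1, Klrb1c and Il2rb were higher in YFP- FM. FM minus M within YFP- was -2.18 for Cd3d, -2.02 for Nkg7 and -1.65 for Gzma, and 2.17 for Klrb1c, 2.74 for Prf1 and 3.20 for Il2rb in log2(TPM + 1). Within YFP+ all 10 were lower in FM, from -1.70 for Cd3e to -0.0090 for Gzmb. As a result the YFP difference of Prf1 was -0.38 between M libraries and -4.01 between FM libraries, that of Klrb1c -0.52 and -4.02, and that of Il2rb -0.56 and -4.75. Gzma had the reverse order, at -3.04 between M and -1.85 between FM libraries, and so did Nkg7, at -2.86 and -1.36. Over all tested genes the median was -1.01 between M and -2.48 between FM libraries. With 1 library for each group and start no test of this difference between title starts was possible.

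Transcript length moved with the contrast between the YFP- libraries. Prf1, Klrb1c and Il2rb are the longest of the 10, with longest annotated transcripts of 2474, 2623 and 4194 bases, while the other 7 run from 881 bases (Nkg7) to 1617 bases (Cd3d). Spearman's rho between length and FM minus M within YFP- was 0.70 over the 10 genes and 0.36 over 11147 tested genes with a length, given as a description across genes that share the same 2 libraries. The median of FM minus M within YFP- was -0.82 for 769 genes of up to 1000 bases, -0.081 for 2359 genes up to 2000 bases, 0.67 for 4468 genes up to 4000 bases and 0.65 for 3551 longer genes. The YFP difference also moved with length, with medians of -0.67, -1.29, -1.87 and -2.07 (YFP+ minus YFP-) in those classes. All 10 genes lay below the median of their own length class, from 1.78 log2 units for Gzma to 0.33 for Prf1. The part of length in the differences of the 10 genes was not tested.

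**Figure D3:**
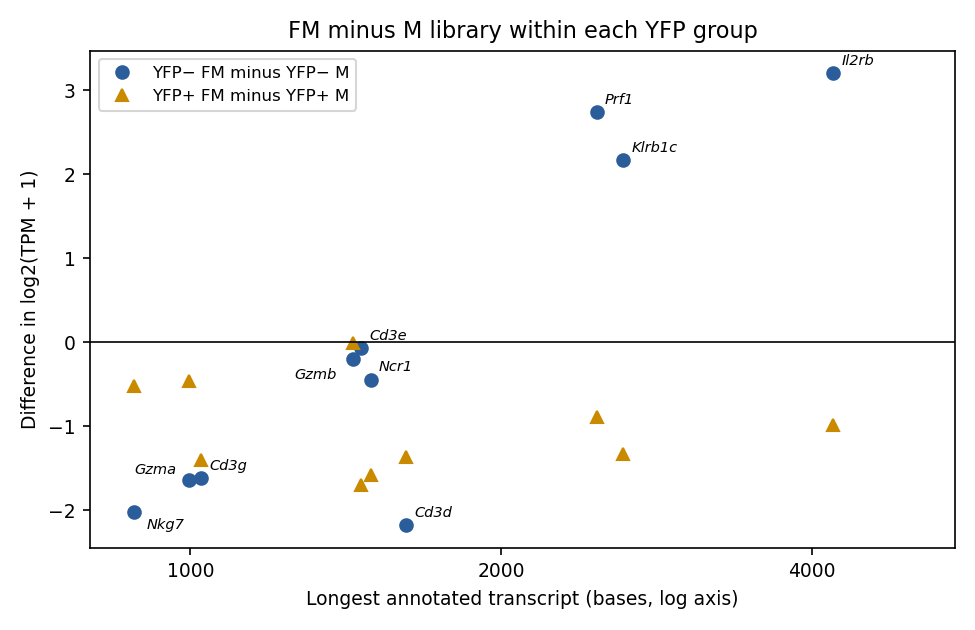
Difference between the FM and the M library in log2(TPM + 1) for each of the 10 genes, within YFP- (blue circles, named) and within YFP+ (orange triangles), against the length of the longest annotated transcript (log axis). The 3 genes over 2000 bases stand at 2.17 to 3.20 within YFP- and the other 7 at or below -0.069.

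Ratios within a library do not change when the library is multiplied by a factor. Relative to Ptprc, the pan-leukocyte surface protein CD45 (32.0 and 10.5 TPM in YFP+ M and FM, 46.0 and 216 TPM in YFP- M and FM), the CD3 genes together stood at 1.26 and 1.21 in YFP+ M and FM, 5.38 in YFP- M and 0.456 in YFP- FM. The YFP+ libraries were alike in this ratio and lay between the YFP- libraries. The 4 granule genes together stood at 4.996 and 11.6 times Ptprc in YFP+ M and FM, 24.7 times in YFP- M and 2.29 times in YFP- FM, again with YFP+ between. Of the 10 genes only Klrb1c was lower in both YFP+ libraries (0.0950 and 0.0581) than in both YFP- libraries (0.104 and 0.116) by this ratio, against 16.3% of all tested genes. By the same ratio 0 of the 10 were higher in both YFP+ libraries, against 21.9% of all tested genes. Ptprc has a long transcript (5074 bases) and was itself high in YFP- FM, so this ratio shifts with the same library contrast. By log2 fold change Ptprc stood at -2.37, and the other listed pan-leukocyte genes Coro1a, Laptm5 and Rac2 at -1.07, -0.79 and 0.81. Rac2 stood at 698 and 715 TPM in YFP+ against 398 and 406 TPM in YFP- (M, then FM). Relative to Rac2 all 10 genes are thus lower in both YFP+ libraries, as are the 79.7% of tested genes that are lower there in TPM. The overlap above holds for Ptprc as denominator.

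**Figure D4:**
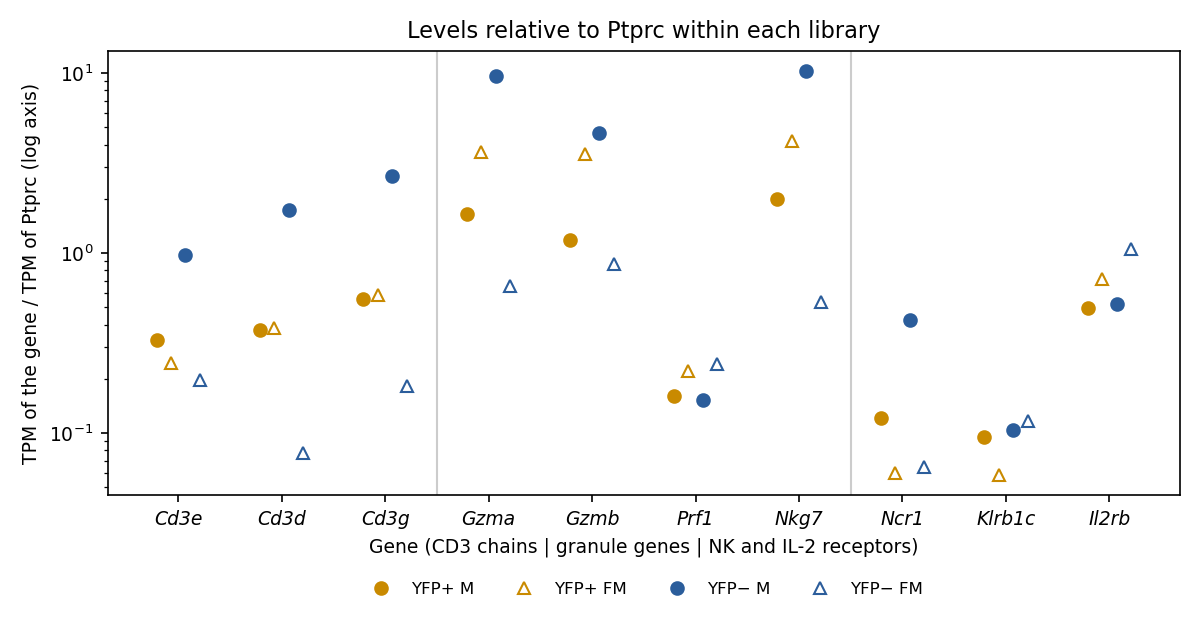
TPM of each gene divided by TPM of Ptprc in the same library (log axis), YFP+ in orange and YFP- in blue, M as filled circles and FM as open triangles. For 9 of the 10 genes the groups overlap, and for the CD3 and granzyme genes and Nkg7 the YFP- M point is the highest and the YFP- FM point the lowest.

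Ratios among the 10 genes showed which transcripts kept proportion. Nkg7 over Gzma was 1.21, 1.16, 1.07 and 0.821 in YFP+ M, YFP+ FM, YFP- M and YFP- FM, a narrow range. Cd3g over Cd3d was 1.49, 1.53, 1.55 and 2.34 in the same order. Ncr1 and Klrb1c together over the CD3 genes were at 0.172, 0.0976, 0.0977 and 0.396. The YFP+ FM and YFP- M values were nearly equal, and the groups overlapped. Within that sum Klrb1c over Ncr1 was 0.784, 0.975, 0.247 and 1.80. Ncr1 and Klrb1c thus did not keep proportion between the YFP- libraries, and their sum is no common measure of NK transcripts. Gzma and Gzmb together over the CD3 genes stood at 2.25, 5.97, 2.66 and 3.32, with the highest value in YFP+ FM and the lowest in YFP+ M. By contrast Il2rb over Gzma ran 0.301, 0.197, 0.0540 and 1.62, and Prf1 over Gzmb 0.137, 0.0617, 0.0328 and 0.281; in both the 2 YFP- libraries were the extremes.

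Other genes of the same pathways were taken from 6 lists, with 83 of 87 entries named in the files and 73 tested. Of these 33 were called lower and 1 higher in YFP+, or 45.2% lower against 39.5% of all tested genes, with a median difference of -1.99 against -1.73. Under quantile normalization and cyclic loess 0 of the 73 were called in either direction, and under median-ratio scaling 6 lower and 1 higher. In the fit blocked on the title start 8 were lower, against 14.1% of all genes, and with a filter at 5 TPM 20 of 55, against 31.6%. Leaving out YFP+ M gave 54 of 73 lower (68.2% of all genes), leaving out YFP+ FM 3 of 73 (7.95%), leaving out YFP- M 0 of 63 (0.253%) and leaving out YFP- FM 1 of 63 (0.234%). Of the 73 genes 10 were below 1 TPM in both YFP+ libraries, so they were tested only through their YFP- levels, and 9 of these were called lower; of all tested genes 1900 entered that way and 1813 of them were called lower. The counts for each list include such genes and no difference between lists was tested.

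NK receptors and adaptors had 11 of 16 lower and 1 higher, against 39.5% of all tested genes lower and 0.522% higher. Of the 11, 4 (Klrc2, Klra9, Klrb1f and Cd226, named for this reason after their values were seen) were tested only through their YFP- levels. Counting only genes that reached 1 TPM in a YFP+ library, 7 of 12 were lower (58.3%), against 29.2% of all such genes. With a filter at 5 TPM 5 of 9 were lower, against 31.6% of all genes. Klrd1, the CD94 chain that pairs with NKG2 receptors, stood at 5.34 and 1.04 TPM in YFP+ M and FM and 95.2 and 14.1 TPM in YFP- M and FM, and fell (-3.40, limma adjusted p = 0.0142). Klre1, a lectin-like NK receptor, fell too, at 3.39 and 0.592 TPM against 76.7 and 11.7 TPM (-3.57, limma adjusted p = 0.00939). Both had their highest level in YFP- M, as Gzma and Nkg7 did. The 1 higher gene was Tyrobp, the adaptor DAP12 that macrophages also make in quantity, at 8701 and 12597 TPM in YFP+ against 3561 and 1792 TPM in YFP- (2.05, limma adjusted p = 0.00463); its sign was the same under all 3 scalings but it did not pass there (limma adjusted p = 0.3145 under quantile normalization, 0.169 under median-ratio scaling and 0.475 under cyclic loess). Hcst, the adaptor DAP10 of NKG2D, did not pass (-0.45, limma adjusted p = 0.697). Among NK transcription factors and effectors 8 of 13 were lower and 0 higher, against 39.5% of all tested genes lower. Of the 8, 2 were tested only through their YFP- levels. Counting only genes that reached 1 TPM in a YFP+ library, 6 of 11 were lower (54.5%), against 29.2% of all such genes. Cxcr6, a chemokine receptor of liver lymphocytes, stood at 4.10 and 0.448 TPM against 32.2 and 36.5 TPM and fell (-3.70, limma adjusted p = 0.00761). The chemokines Ccl5 (-1.25, limma adjusted p = 0.184) and Xcl1 (-2.19, limma adjusted p = 0.0799) and the surface protein Cd7 (-1.20, limma adjusted p = 0.312) did not pass. Ccl5 stood at 1762 TPM in YFP- M, over 252 TPM in YFP- FM and 219 and 358 TPM in YFP+ M and FM.

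T cell receptor complex and signalling genes had 4 of 14 lower and 0 higher, against 39.5% of all tested genes lower. Their median was -2.07. All 14 had both YFP+ libraries below both YFP- libraries, as did 79.7% of all tested genes. Of the 4 called lower, 1 was tested only through its YFP- levels. Among genes that reached 1 TPM in a YFP+ library 3 of 13 were lower (23.1%), against 29.2% of all such genes. Lck, the kinase that phosphorylates CD3 chains, stood at 33.7 and 9.78 TPM in YFP+ and 97.3 and 124 TPM in YFP- and fell (-2.52, limma adjusted p = 0.0393). The adaptors Lcp2 (-0.92, limma adjusted p = 0.379), which macrophages also express, and Lat (-1.72, limma adjusted p = 0.164) and the surface protein Thy1 (-2.11, limma adjusted p = 0.0992) did not pass. Of T cell coreceptors and transcription factors 4 of 9 were lower and 0 higher, against 39.5% of all tested genes lower. Counting only genes that reached 1 TPM in a YFP+ library, 4 of 8 were lower (50%), against 29.2% of all such genes. Il7r, the receptor chain for interleukin 7, stood at 3.10 and 0.330 TPM in YFP+ against 42.4 and 23.9 TPM in YFP- (-3.81, limma adjusted p = 0.00532), and Tcf7, a transcription factor of naive and memory T cells, fell as well (-2.93, limma adjusted p = 0.0303). Cd8b1, the CD8 beta chain (-2.19, limma adjusted p = 0.0918), and the factor Ets1 (-2.61, limma adjusted p = 0.0504) did not pass. Under median-ratio scaling Il7r (limma adjusted p = 0.0205) and Cxcr6 (limma adjusted p = 0.0267) kept their calls, which Klrd1, Klre1, Lck and Tcf7 did not.

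Of granule proteases and release machinery 4 of 12 were lower and 0 higher, against 39.5% of all tested genes lower, with a median of -1.30. Of the 4, 1 was tested only through its YFP- levels. Counting only genes that reached 1 TPM in a YFP+ library, 3 of 11 were lower (27.3%), against 29.2% of all such genes. The most abundant were Ctsc, the protease that activates granzymes (0.38, limma adjusted p = 0.657), Srgn, the granule proteoglycan serglycin (0.73, limma adjusted p = 0.4025), Stxbp2, a vesicle fusion regulator (-0.19, limma adjusted p = 0.870), and Ctsw (-1.20, limma adjusted p = 0.314), and none of these passed. Of interleukin 2 and 15 signalling genes 2 of 9 were lower and 0 higher, against 39.5% of all tested genes lower. Of the 2, 1 was tested only through its YFP- levels. Without such genes 1 of 8 was lower (12.5%), against 29.2% of all tested genes counted in the same way. Jak1, the kinase bound to Il2rb, fell (-2.75, limma adjusted p = 0.0185), from 165 and 290 TPM in YFP- M and FM to 58.9 and 16.7 TPM in YFP+ M and FM. The shared gamma chain Il2rg (-1.04, limma adjusted p = 0.321), the cytokine Il15 (-1.33, limma adjusted p = 0.299) and its receptor Il15ra (-1.54, limma adjusted p = 0.236) did not pass.

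**Figure D5:**
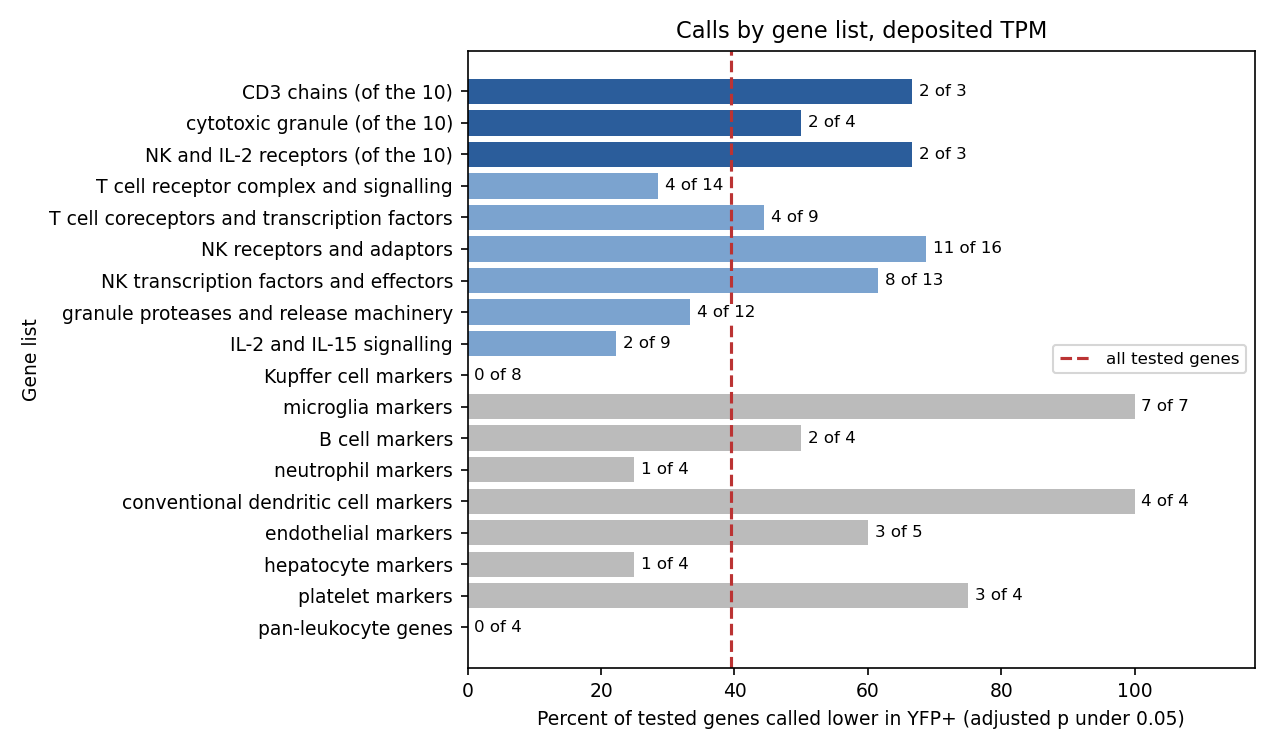
Percent of tested genes called lower in YFP+ in each gene list, with the counts beside the bars; the 10 genes by role in dark blue, other T and NK pathway lists in light blue, markers of other cells in grey. The dashed line is the 39.5% of all tested genes; bars run from 0 of 8 Kupffer cell markers to 7 of 7 microglia markers, and counts include genes tested only through their YFP- levels.

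Markers of other cells moved in the same comparison, where 39.5% of all genes were called lower and 0.522% higher. All 4 conventional dendritic cell genes, 2 of 4 B cell genes and 3 of 4 platelet genes were called lower in YFP+. So were 3 of 5 endothelial genes and all 7 microglia genes, but only 1 of 4 neutrophil and 1 of 4 hepatocyte genes. The hepatocyte gene called was Ttr (-4.10), while Alb (-0.86), Apoa1 (0.89) and Serpina1a (-0.50) were not called. The endothelial genes called included Cldn5 (-5.28) and Kdr (-4.20), while Cdh5 (-0.052) and Stab2 (-0.035) were not called. Of these calls, 1 dendritic cell and 2 platelet genes were tested only through their YFP- levels. Among genes that reached 1 TPM in a YFP+ library 3 of 3 dendritic cell and 1 of 2 platelet genes were lower, against 29.2% of all such genes. Under quantile normalization, median-ratio scaling and cyclic loess the microglia genes called lower numbered 7, 6 and 2, and 0 dendritic cell and 0 B cell genes were called lower under any of these scalings. B cell markers summed to 513 and 75.9 TPM in YFP+ M and FM and 589 and 571 TPM in YFP- M and FM. Low levels in YFP+ FM were not confined to B and T cell transcripts. Over all tested genes FM minus M within YFP+ had a median of -1.05 on the log2 scale. YFP+ FM had 7386 genes at 1 TPM, against 10302 to 12829 elsewhere. Its top 100 genes held 66.1% of TPM, against 29.7% to 54.0% elsewhere. Its CD3 genes over Ptprc stood at 1.21, close to 1.26 for YFP+ M. Whether it held fewer lymphocytes was not tested. Of the Kupffer cell markers 0 of 8 were lower and 4 higher, with 0 higher under quantile normalization (1.21% of all genes called higher) and cyclic loess (0.531%) and 2 under median-ratio scaling (6.2%). The part of these cells in the levels of the 10 genes was not tested.

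Genes whose pattern over the 4 libraries lay nearest to the mean pattern of the 10 were Hmgxb4, Pyroxd1, Zfp97, AI597479 and Krr1, by Euclidean distance between centred log2(TPM + 1) profiles (0.048, 0.050, 0.071, 0.076 and 0.092). None of these 5 belongs to the lists above, and each is low, with 6.51 TPM for Zfp97 and 11.1 TPM for Hmgxb4 in YFP- FM. The 10 genes themselves lay farther from their own mean, from 0.54 for Ncr1 to 2.28 for Il2rb.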

How the data were processed

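RNA of sorted liver macrophages was read from 4 deposited gene tables, 1 per library, grouped by the genotype label. Per the file headers the authors deposited mean read coverage, FPKM and TPM for each gene. The submitters' processing notes name HISAT, with no version number, and GRCm38 and mm10 as genome builds. Which program made the abundances, and which kit and strandedness were used, were not given in the sources used here. Within each deposited table TPM summed to 1000000. Rows of one gene name were summed (166 of 23337 names). The 12251 genes that reached 1 TPM in 2 or more libraries entered limma 3.58.1 (R 4.3.3, trended empirical Bayes) as log2(TPM + 1), with Benjamini-Hochberg adjustment over all of them and a threshold of 0.05; all adjusted p-values are from this test. In this fit the prior degrees of freedom were infinite. The SE of a gene then follows from the trend of variance with level, and its own spread between libraries has no weight. Coverage divided by FPKM gave relative depth; reads are unknown, so no counting interval is given.

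The 10 genes, the gene lists, the alternatives and the tests were chosen with earlier results of these data known. From each list the genes named are the 4 of highest mean TPM among those tested, plus any called higher. Of 143 list entries, Adgre1 was matched by its older symbol Emr1. Transcript lengths are the longest in GENCODE M21 basic (GRCm38), found for 91.0% of tested genes. The description by length was chosen after seeing the data. Alternatives were FPKM, 3 scalings, a pseudocount of 0.1, the filter dropped or raised to 5 TPM, the title start as a block, genes on 1 row and each library left out. The test was tested on simulated data for the YFP comparison over 12251 genes, with a small set lowered, drawn from genes above the median level. Of genes lowered by 2 on the log2 scale it called 6%, of those by 4 60%, by 6 96% and by 8 100%. Of 132 calls 1 was an unchanged gene. The simulation held no shift shared by most genes, while in the data the median difference was -1.73. Its rates therefore do not carry over to the calls in these data. Tables and figures were made in Python 3.11.15 with NumPy 2.4.6, pandas 2.3.3 and matplotlib 3.10.9.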

Additional observations from a re-analysis of the deposited data

Results flagged for a closer look

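Among 71 genes named from the lists or among the 10, the YFP+ minus YFP- difference in log2(TPM + 1) had opposite signs between the M and the FM libraries for 9, and this was not tested, since each start has 1 library per group. None of the 10 genes was among them. Of T and NK pathway genes, Ccl5 stood at -3.00 between M and 0.50 between FM libraries, Hcst at -1.57 and 0.67, Ctsc at 1.39 and -0.63, and Stxbp2 at 0.90 and -1.28. Of markers of other cells, Stab2 stood at 1.91 and -1.98, Cdh5 at 1.10 and -1.20, Cd79b at 0.028 and -2.71, S100a8 at -0.053 and 1.10, and S100a9 at -0.077 and 1.61.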

How the results depend on the processing

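Genes called lower in YFP+ numbered 4834 and genes called higher 64 in the deposited TPM. The counts (lower, then higher where it moved by over 1.5 times) were 3078 with a pseudocount of 0.1, 2902 with a filter at 5 TPM, 205 and 148 under quantile normalization, 790 and 759 under median-ratio scaling, 40 under cyclic loess, 1726 and 23 with the title start as a replicate block, and with FPKM 115 higher. Leaving out each library gave 24 to 8280 lower and 12 to 71 higher. The share of all tested genes called lower was 39.5% in the deposited TPM, 25.1% with a pseudocount of 0.1 and 30.8% with FPKM. It was 28.7% with no filter, 31.6% with a filter at 5 TPM and 14.1% with the replicate block. Under quantile normalization, median-ratio scaling and cyclic loess it was 1.67%, 6.45% and 0.327%. Of the 10 genes 6 were called lower in the deposited TPM, against 2 with a pseudocount of 0.1 or with FPKM and 3 with no filter. The count was 5 with a filter at 5 TPM (9 tested) and 0 under each of the 3 scalings and with the replicate block. Without single libraries the count ran from 0 to 10. The median of the 10 minus that of all genes was -0.68, -1.21 with no filter, -0.29 with a pseudocount of 0.1 and -0.24 under median-ratio scaling, and -1.30 to -0.29 without single libraries. Nkg7 turned to 0.14 under median-ratio scaling and Prf1 to 0.0054 under cyclic loess. The cause of these changes was not tested, apart from the smaller number of samples when a library is left out; a lone library is then assumed to vary like the other group. Deviations from the group mean were unrelated between libraries of the same start (r = -0.011 across genes). With 2 libraries per group this r only compares the M and FM contrast of each group across genes. It cannot show whether libraries of the same start share animals. The main fit did not take the starts as pairs, and whether they are pairs is unknown. Low coverage limits Ncr1 and Klrb1c most.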
